A study of Mus musculus with 30 samples.

Results

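The sterol and fatty acid synthesis genes are 34 listed genes of pathways that the sterol regulatory element binding proteins (SREBPs) are known to drive. Not each of them is an established SREBP target. They were taken as a list of symbols and found among the 54532 features of the count files. The rule uses no measured value, but the list was drawn up with earlier results of these data known. The sterol arm held 18 of them, the fatty acid arm 11, and 5 were regulators of the pathway or carriers of sterol. Messenger RNA was measured by sequencing of transcript 3′ ends (Lexogen QuantSeq) in 30 tumours of YUMM1.7, a mouse melanoma line. The 10 groups were RAFi/MEKi-treated and untreated tumours of the clones 2646R, 2646TN, 14559R, 14559TN and 13TN, with 3 tumours in each group. Per the labels, the strain was C57BL/6, the cells had been isolated as clones with the barcode method CaTCH and injected under the skin, and live cells with strong GFP signal were sorted from the dissociated tumours after a CD45 stain. Each of the 5 names stands for 1 clone, so a difference between clones is a difference between single clones. The labels spell out neither TN and R nor the dose and length of treatment, and the titles of the 13TN samples carry the word Depleted1. The labels give each tumour a code of its own, and the spread within a group is that between its 3 tumours.

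SREBPs are made as membrane proteins of the endoplasmic reticulum. When sterol is low, the escort protein SCAP carries them to the Golgi, where proteases release the part that enters the nucleus and binds sterol regulatory elements, usually beside NF-Y and SP1 sites. When sterol is high, INSIG proteins hold the complex back. SREBP-2, from Srebf2, is known mainly for the genes of cholesterol synthesis and uptake, and SREBP-1, from Srebf1, for those of fatty acid synthesis and desaturation. Srebf2 and Insig1 are themselves SREBP targets.

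Promoter sequences are shown for 4 members: Hmgcs1 and Srebf2, which hold a sterol regulatory element core, Cyp51, a sterol gene that fell in 4 clones, and Fasn, a fatty acid gene called in no response to treatment. The sequences are those of RefSeq for GRCm38.p6, 250 bases before to 50 after an annotated start, 5′ to 3′ on the strand of the gene, and 27 of the 34 members had one. Hmgcs1 lies at chr13:119690101-119690400 on the plus strand, Srebf2 at chr15:82147019-82147318 on the plus strand, Cyp51 at chr5:4104648-4104947 on the minus strand and Fasn at chr11:120824498-120824797 on the minus strand. Capitals mark each match, on either strand, of a sterol regulatory element core (TCACNCCAC or ATCACNCCA) or of the NF-Y box CCAAT, whose other strand reads ATTGG.
Hmgcs1: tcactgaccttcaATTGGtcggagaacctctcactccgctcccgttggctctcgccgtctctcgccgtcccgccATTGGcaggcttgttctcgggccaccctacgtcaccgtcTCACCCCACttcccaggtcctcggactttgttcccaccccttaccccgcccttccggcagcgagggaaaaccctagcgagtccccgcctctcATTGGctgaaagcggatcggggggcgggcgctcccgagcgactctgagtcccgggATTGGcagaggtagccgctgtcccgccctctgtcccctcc
Srebf2: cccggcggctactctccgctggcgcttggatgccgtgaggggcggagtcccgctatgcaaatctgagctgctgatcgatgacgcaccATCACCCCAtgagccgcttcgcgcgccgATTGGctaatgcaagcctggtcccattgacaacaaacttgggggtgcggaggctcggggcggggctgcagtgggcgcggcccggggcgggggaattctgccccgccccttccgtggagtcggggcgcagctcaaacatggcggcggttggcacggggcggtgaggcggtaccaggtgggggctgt
Cyp51: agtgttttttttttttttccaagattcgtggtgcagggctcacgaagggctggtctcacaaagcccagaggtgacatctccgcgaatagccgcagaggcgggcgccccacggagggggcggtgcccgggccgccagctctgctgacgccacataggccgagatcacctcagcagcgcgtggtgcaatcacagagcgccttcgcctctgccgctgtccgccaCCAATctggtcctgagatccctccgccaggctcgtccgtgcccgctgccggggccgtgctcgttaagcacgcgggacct
Fasn: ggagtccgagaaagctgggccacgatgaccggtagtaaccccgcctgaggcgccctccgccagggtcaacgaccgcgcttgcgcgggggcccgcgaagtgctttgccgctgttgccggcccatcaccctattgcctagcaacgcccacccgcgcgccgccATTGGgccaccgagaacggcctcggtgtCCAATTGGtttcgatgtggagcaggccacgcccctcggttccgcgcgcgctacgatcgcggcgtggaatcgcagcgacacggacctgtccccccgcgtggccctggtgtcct
CCAAT stood in 14 of 15 sterol arm genes, 3 of 4 regulators and 5 of 8 fatty acid arm genes, against 41.1% of the 27025 genes with a promoter in the table. The SP1 box GGGCGG stood in 14 of 15, 4 of 4 and 4 of 8, against 38.2% of genes. TCACNCCAC stood only in the promoter of Hmgcs1 among these members, with its first base at -137 from the start (1.44% of genes), and ATCACNCCA only in that of Srebf2, at -163 (0.992% of genes). The element TCACGTGA (1.12% of genes) stood in none of the 27. CCAAT and ATTGG overlap in CCAATTGG of the Fasn promoter, and TCACNCCAC and ATCACNCCA can overlap one another. A match of letters is a description of the sequence and does not show binding. Only these fixed letters were searched, in this stretch alone, so a promoter without a match may still hold a sterol regulatory element.

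The libraries held 3022801 to 5278453 counts (median 4042893), and 13286 genes passed a filter on low counts and were tested. Levels are CPM, the share of a library's counts scaled by 1000000 with TMM factors. Of the 34 members 33 passed the filter. Idi1, an isomerase of the isoprenoid units, did not, with 49 counts in all and at most 8 in a library, and no treated 14559TN or 13TN library held any. Of 7 pigment cell markers, Dct, Tyr and Tyrp1 had 0 counts in all 30 libraries, while Mitf, a melanocyte transcription factor, had 12.0 to 81.1 CPM. Of the 7 markers 2 were tested. Between untreated 14559R and 14559TN 1 of these was called higher (log2 7.33) and 1 lower (log2 -0.68), where 12.9% of all genes were called higher. Lower at an unadjusted p under 0.05 in edgeR, a wider threshold, were 16.7% of all genes. Between untreated 2646R and 2646TN 1 was called higher, where 18.3% of all genes were. Adipocyte markers, whose cells make fatty acids, summed to at most 28.0 CPM in any library, Lep had 0 counts throughout, and Adipoq did not exceed 0.756 CPM. Of the 10 markers 2 were tested. Between 14559R and 14559TN 1 was called higher, untreated (log2 4.16) and treated (log2 4.60), where 12.9% and 26.6% of all genes were. Between untreated 2646R and 2646TN 1 was called lower (log2 -1.15), where 18.4% of all genes were, and the other stood at 2.14 without a call. Treated, these stood at -1.08, called, and 3.05, not called. Their part in the fatty acid genes was not tested. Fdps counts are uncertain because the 3′ end of its transcript is at least 95% identical to 4 processed pseudogenes, among them Gm3571 (99.1% over 545 bases), and overlaps the gene Gm43738. Tm7sf2 overlaps Vps51, and Srebf2 overlaps Gm49502, on the same strand. The 3′ end of the Fads2 model in the files lies at -1399 bases from that in GENCODE vM21 (short of it), and Fads2 counts were low.

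After RAFi/MEKi some sterol arm genes were called lower in 4 of the 5 clones, though few of them in 2646R. In 14559TN, 13TN and 2646TN a larger share of the sterol arm than of the fatty acid arm fell. In 14559TN 16 of 17 tested sterol genes and 6 of 11 fatty acid genes fell, against 16% of all tested genes called lower. In 13TN the counts were 14 of 17 and 6 of 11, against 17.4% of all genes. In 2646TN they were 12 of 17 and 5 of 11, against 2.24% of all genes. In 2646R they were 4 of 17 and 3 of 11, against 10.2% of all genes. The sterol count there fell to 2 without any 1 of 4 of the libraries compared. In 14559R edgeR called none of either arm, against 0.196% of all genes called in either direction. No member of these 2 arms was called higher in any of the 5 responses, where 1.69% (2646TN), 9.7% (2646R), 12.4% (14559TN) and 13.6% (13TN) of all genes were. Called means an adjusted p under 0.05 in edgeR's quasi-likelihood test, with Benjamini-Hochberg adjustment over all 13286 genes.

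The median log2 fold change of the sterol arm was -1.71 in 14559TN, -1.63 in 13TN, -1.31 in 2646TN, -0.56 in 2646R and -0.24 in 14559R. That of the fatty acid arm was -0.88, -0.85, -0.81, -0.33 and -0.20 in the same clones. Over all tested genes the median lay between -0.01 and 0.03 in the 12 comparisons made. The sterol median was thus the lower of both arms in each clone, by a margin that was small in 14559R. No score over the members was tested, since the list was chosen with results of these data known. These are bulk samples, in which fewer cells of a type and less RNA per cell cannot be told apart.

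Other transcripts moved with the treatment in some clones. Summed cell division markers had 148 ± 33.1 CPM in treated and 839.6 ± 111 CPM in untreated 14559TN tumours, and all 12 were called lower. In 13TN treated tumours had 133 ± 16.9 CPM and untreated ones 1226 ± 36.8 CPM, with all 12 lower. In 2646TN, where sterol genes fell too, the sums were 1228 ± 265 CPM in treated and 1103 ± 169 CPM in untreated tumours. In 2646R they were 1924 ± 142 CPM and, untreated, 1056 ± 183 CPM, with 8 of 12 higher. Macrophage markers had 49.3 ± 23.1 CPM in treated and 225 ± 52.0 CPM in untreated 2646TN tumours, with 7 of 11 lower, and 119 ± 11.2 CPM in treated and 48.9 ± 16.6 CPM in untreated 2646R tumours, with 2 of 11 higher. Fibroblast markers, high in all groups, were higher in the treated tumours of every clone by the mean of their sum. They had 8876 ± 538 CPM in treated and 4199 ± 502 CPM in untreated 13TN tumours, with 5 of 8 called higher, and 15588 ± 987 CPM in treated and 6575 ± 673 CPM in untreated 2646R tumours, with 3 of 8. In 2646TN treated tumours had 9893 ± 3873 CPM and untreated ones 5626 ± 1112 CPM, with 1 of 8 higher. In 14559TN treated tumours had 13064 ± 3060.4 CPM and untreated ones 9358 ± 514 CPM, with 4 of 8 higher. In 14559R treated tumours had 16739 ± 4863 CPM and untreated ones 12052 ± 1744 CPM, with 0 of 8 called. Cell division markers there had 929 ± 107 CPM in treated and 1211 ± 211 CPM in untreated tumours, with 0 of 12 called. Of all tested genes 16% were called lower and 12.4% higher in 14559TN, and 17.4% and 13.6% in 13TN. The shares were 2.24% and 1.69% in 2646TN, 10.2% and 9.7% in 2646R, and 0.196% in either direction in 14559R. Some of the marker counts lie near these shares. The part of these transcripts in the changes of the sterol and fatty acid genes was not tested.

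**Figure D1:**
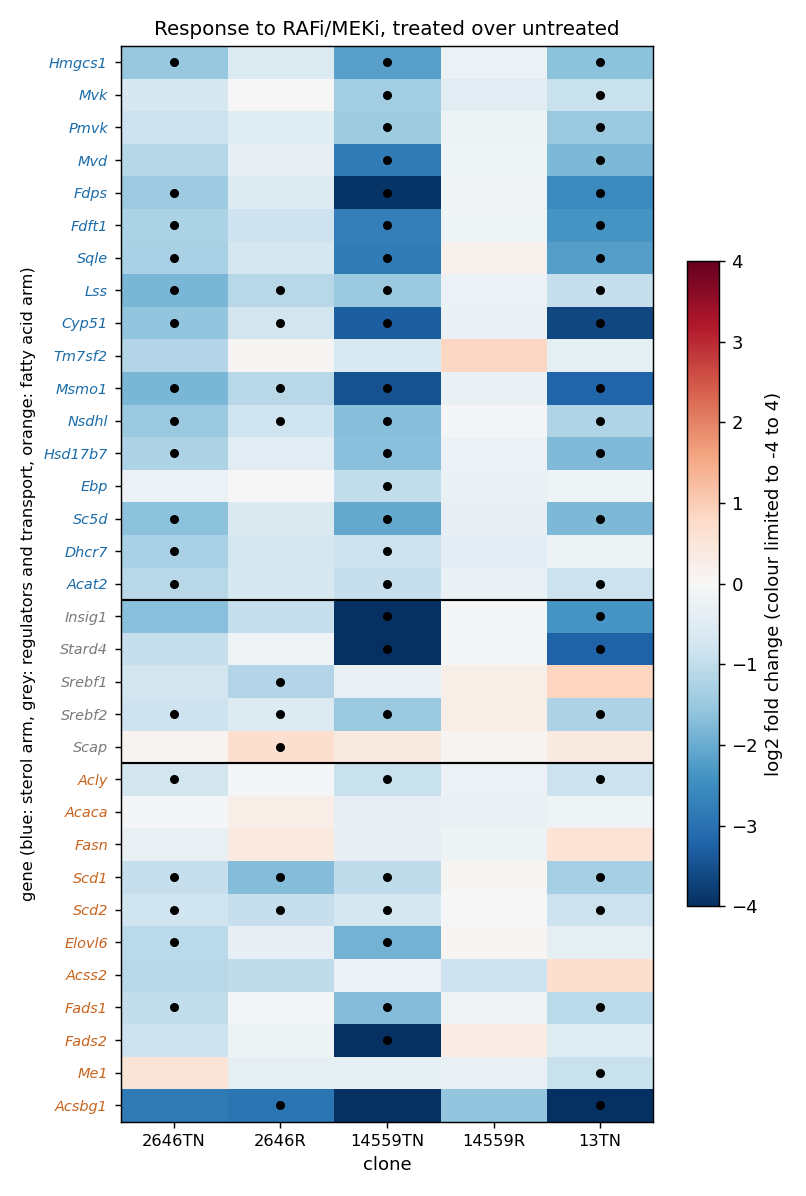
Colour gives the log2 fold change of treated over untreated tumours for 33 genes (rows) in the 5 clones (columns), limited to -4 to 4, and a black dot marks a call at adjusted p under 0.05. The 14559TN and 13TN columns are darkest over the sterol arm, and the 14559R column holds no dot.

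Among the genes of the early pathway, Hmgcs1, which makes HMG-CoA, had 38.0, 42.1 and 38.2 CPM in treated 14559TN tumours, against 192, 150.3 and 194 CPM in untreated 14559TN tumours. It had 46.4, 39.6 and 38.4 CPM in treated 13TN tumours, against 124, 114 and 149 CPM in untreated 13TN tumours. The treated tumours lay below all untreated ones in both clones, with log2 fold changes of -2.18 ± 0.23 (standard error; adjusted p = 2.79e-08) and -1.63 ± 0.22 (adjusted p = 2.08e-06). In 2646TN it had 56.1, 53.8 and 78.1 CPM in treated 2646TN tumours, against 193, 152 and 193 CPM in untreated 2646TN tumours, a change of -1.52 ± 0.22 (adjusted p = 8.6e-05). In 2646R the groups overlapped, with 112, 86.0 and 139 CPM in treated 2646R tumours, against 142, 214 and 132 CPM in untreated 2646R tumours (adjusted p = 0.0744). The kinases Mvk and Pmvk and the decarboxylase Mvd, which turn mevalonate into the isoprenoid unit, fell in 14559TN and 13TN, with log2 fold changes of -0.89 (Mvk in 13TN) to -2.80 (Mvd in 14559TN), and were not called in the other 3 clones. Acat2, the thiolase that makes acetoacetyl-CoA, fell in 3 clones by 0.85 to 1.10 on the log2 scale. Fdps, which joins isoprenoid units to farnesyl diphosphate and whose reads may be shared with its pseudogenes, had 0.850, 1.67 and 1.43 CPM in treated 14559TN tumours, against 24.8, 15.0 and 22.6 CPM in untreated 14559TN tumours. Its change there was -3.93 ± 0.49 (adjusted p = 3.85e-07), and its call in 2646TN (-1.44 ± 0.37) was lost with only the groups compared in the fit and without any of untreated replicates 1 and 3 and treated replicates 1 and 2 (adjusted p up to 0.113). The Acat2 call was lost under the same 5 alternatives in 2646TN (adjusted p up to 0.138), without untreated replicate 1 or 2 or treated replicate 2 or 3 in 14559TN (0.115) and without any library but treated replicate 3 in 13TN (0.191). The Mvk call in 13TN was lost without treated replicate 2 (adjusted p = 0.0536), and the Pmvk call without untreated replicate 1 in 13TN (0.0564) and treated replicate 3 in 14559TN (0.0587).

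The later genes of the arm make squalene and turn it into cholesterol, and most of them fell in the same clones. Cyp51, which removes a methyl group from lanosterol, had 8.10, 5.88 and 6.03 CPM in treated 13TN tumours, against 93.1, 70.5 and 87.8 CPM in untreated 13TN tumours. It had 13.0, 13.5 and 10.3 CPM in treated 14559TN tumours, against 133, 105 and 128 CPM in untreated 14559TN tumours. The treated tumours of both clones lay far below every untreated one, and the changes were -3.64 ± 0.28 (adjusted p = 7.44e-11) and -3.30 ± 0.26 (adjusted p = 3.04e-10). In 2646TN it had 41.7, 39.2 and 78.8 CPM in treated 2646TN tumours, against 186, 136 and 161 CPM in untreated 2646TN tumours (log2 -1.59 ± 0.23, adjusted p = 9.03e-05), with treated replicate 3 the highest of the treated tumours. Msmo1, a methyl sterol oxidase that acts after Cyp51, had 15.0, 6.25 and 11.1 CPM in treated 14559TN tumours, against 130.4, 93.8 and 133 CPM in untreated 14559TN tumours. Its change was -3.49 ± 0.33 (adjusted p = 2.82e-08), beside -3.22 ± 0.33 in 13TN, -1.82 ± 0.29 in 2646TN and -1.10 ± 0.28 in 2646R, all called. Sqle, the squalene epoxidase, had 9.07, 5.21 and 7.41 CPM in treated 14559TN tumours, against 57.5, 42.0 and 48.3 CPM in untreated 14559TN tumours. It fell by 2.79 on the log2 scale there (adjusted p = 7.18e-08), by 2.20 in 13TN and by 1.31 in 2646TN, and stood at -0.66 ± 0.25 (adjusted p = 0.0586) in 2646R. Fdft1, the squalene synthase, stood at -2.75 ± 0.36 (adjusted p = 5.88e-07) in 14559TN and -2.36 ± 0.34 (adjusted p = 2.78e-06) in 13TN.

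Lss, the lanosterol synthase, like Nsdhl, Acat2 and Dhcr7, had a larger change in 2646TN than in 13TN. It had 5.07, 4.53 and 9.07 CPM in treated 2646TN tumours, against 22.1, 21.5 and 23.8 CPM in untreated 2646TN tumours, a change of -1.83 ± 0.26 (adjusted p = 5.16e-05), and 5.63, 4.53 and 6.78 CPM in treated 13TN tumours, against 12.4, 9.41 and 10.1 CPM in untreated 13TN tumours, a change of -0.92 ± 0.27 (adjusted p = 0.00971). The difference between these clones was not tested, and the 13TN call was lost without a low-count filter and without untreated replicate 1 or treated replicate 2 (adjusted p up to 0.0726). Nsdhl and Hsd17b7, which act with Msmo1 in demethylation, and the desaturase Sc5d fell in 14559TN, 13TN and 2646TN by 1.19 to 2.04 on the log2 scale. Dhcr7, the reductase of the last step, fell in 2646TN (log2 -1.31 ± 0.31, adjusted p = 0.012) and in 14559TN (log2 -0.85 ± 0.32, adjusted p = 0.0448), where its groups overlapped, and stood at -0.21 ± 0.33 (adjusted p = 0.659) in 13TN. Ebp, a sterol isomerase, fell in 14559TN alone of the 5 responses (log2 -0.98 ± 0.19, adjusted p = 0.000148). Tm7sf2, a sterol reductase, was the 1 tested sterol gene called in no response, and it stood at -1.17 ± 0.37 (adjusted p = 0.0667) in 2646TN and 0.84 ± 0.39 (adjusted p = 0.439) in 14559R. Lss, Cyp51, Msmo1 and Nsdhl were called lower in 4 responses and another 7 genes in 3. In 2646R those 4 were the sterol genes called, and the count fell to 2 without untreated replicate 2 or 3 or treated replicate 1 or 2. Cyp51 lost its 2646R call without any 1 of the untreated libraries or of treated replicates 1 and 2 (adjusted p up to 0.113) and Nsdhl with only the groups compared and without untreated replicate 2 or 3 or treated replicate 1 or 2 (up to 0.201). In 2646TN the Fdft1 call was lost without untreated replicate 2 or 3 or treated replicate 1 (adjusted p up to 0.0885) and the Dhcr7 call without untreated replicate 1 or treated replicate 1 or 2 (up to 0.091). The Dhcr7 call in 14559TN was lost under DESeq2, under median-of-ratios scaling and without any library but treated replicate 2 (up to 0.199).

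**Figure D2:**
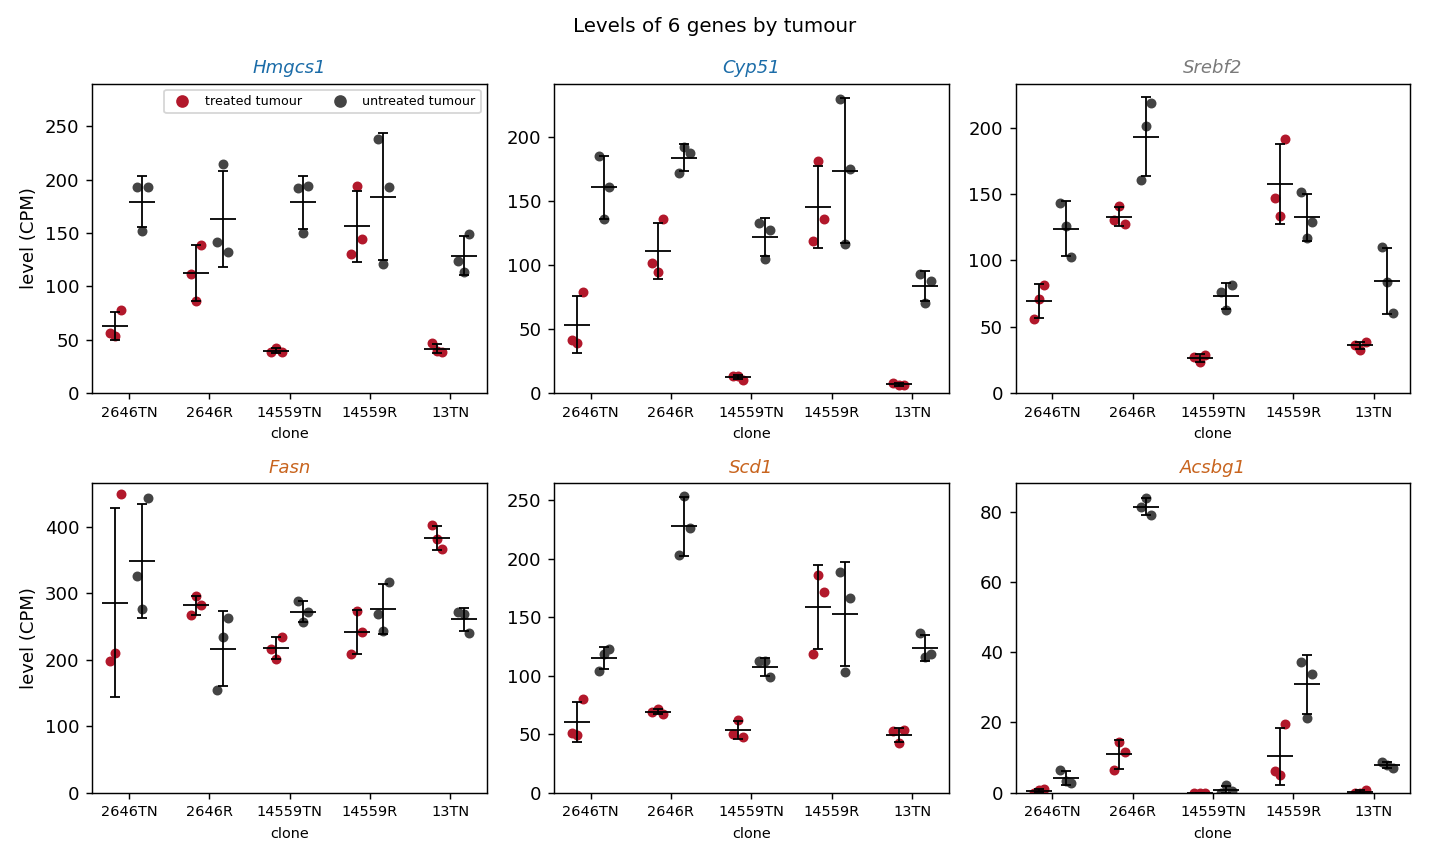
Levels in CPM of Hmgcs1, Cyp51, Srebf2, Fasn, Scd1 and Acsbg1 in each tumour, treated left of untreated within each clone, with bars for the mean and SD of 3 tumours. Cyp51 lies at 5.88 to 13.5 CPM in treated 14559TN and 13TN tumours and at 70.5 CPM or more in all untreated tumours, while Fasn overlaps between treated and untreated tumours in 2646TN and 14559R.

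Of the regulators, Srebf2 fell together with the sterol genes in the same 4 clones. It had 26.9, 22.9 and 28.8 CPM in treated 14559TN tumours, against 76.2, 62.3 and 81.3 CPM in untreated 14559TN tumours, a change of -1.49 ± 0.19 (adjusted p = 5.05e-07). In 13TN it stood at -1.24 ± 0.19 (adjusted p = 4.5e-06), in 2646TN at -0.84 ± 0.18 (adjusted p = 0.00479) and in 2646R at -0.54 ± 0.17 (adjusted p = 0.0265). In 14559R it had 147, 134 and 191 CPM in treated 14559R tumours, against 151, 117 and 128 CPM in untreated 14559R tumours, groups that overlapped. The call in 2646R was lost without any library but untreated replicate 1 (adjusted p up to 0.157) and that in 2646TN without untreated replicate 1 (0.069). Stard4, a carrier of sterol between membranes, had 1.42, 0.834 and 0.285 CPM in treated 14559TN tumours, against 20.8, 19.6 and 20.6 CPM in untreated 14559TN tumours, and 2.25, 0.453 and 2.26 CPM in treated 13TN tumours, against 17.0, 12.9 and 17.5 CPM in untreated 13TN tumours. Every treated tumour lay below every untreated one, at -4.54 ± 0.44 (adjusted p = 1.95e-09) and -3.24 ± 0.39 (adjusted p = 9.57e-08), while in 2646TN it was not called (log2 -0.91 ± 0.30, adjusted p = 0.0766). Insig1, which holds the SREBP complex in the endoplasmic reticulum, had 1 count over the 3 treated 14559TN libraries and 58 over the untreated ones, 58.4-fold fewer (95% counting interval 10.5 to 2308). In 13TN it stood at -2.34 ± 0.58 (adjusted p = 0.00207), and in 2646TN its treated tumours lay below the untreated ones without a call (log2 -1.66 ± 0.55, adjusted p = 0.0806).

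Srebf1 was called lower in 2646R alone of the 5 responses. In 13TN it had 16.7, 19.0 and 15.3 CPM in treated 13TN tumours, against 7.53, 10.1 and 10.4 CPM in untreated 13TN tumours, so that the treated tumours lay above the untreated ones, without a call (log2 0.86 ± 0.38, adjusted p = 0.0825). In 2646R it fell, with 8.45, 3.04 and 4.54 CPM in treated 2646R tumours, against 9.80, 17.5 and 9.27 CPM in untreated 2646R tumours (log2 -1.17 ± 0.40, adjusted p = 0.0344), a call lost with only the groups compared and without untreated replicate 2 or treated replicate 2 or 3 (adjusted p up to 0.218). Scap, the escort of SREBPs, was the sole member called higher in a response, in 2646R, with 88.2, 92.1 and 99.7 CPM in treated 2646R tumours, against 64.3, 50.3 and 59.7 CPM in untreated 2646R tumours (log2 0.68 ± 0.15, adjusted p = 0.000945). It stood at 0.37 ± 0.15 (adjusted p = 0.061) in 14559TN and 0.35 ± 0.15 (adjusted p = 0.0699) in 13TN. The regulators called lower were 3 of 5 in 14559TN and 13TN, 2 in 2646R, 1 in 2646TN and none in 14559R, against 16%, 17.4%, 10.2% and 2.24% of all genes in 14559TN, 13TN, 2646R and 2646TN. In 14559R no regulator reached an unadjusted p under 0.05 and DESeq2 called none.

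In the fatty acid arm the desaturases Scd1 and Scd2 fell in 4 clones, while Acaca and Fasn, which build the chain, were called in none. Scd1, which makes oleate from stearate, had 68.7, 71.3 and 67.2 CPM in treated 2646R tumours, against 204, 254 and 226 CPM in untreated 2646R tumours. It had 52.7, 42.8 and 53.5 CPM in treated 13TN tumours, against 136, 116 and 118 CPM in untreated 13TN tumours. In both clones the 3 treated tumours lay well below the untreated ones, with changes of -1.72 ± 0.19 (adjusted p = 6.22e-08) and -1.32 ± 0.19 (adjusted p = 2.05e-06). In 14559TN the change was -1.01 ± 0.19 (adjusted p = 0.000119) and in 2646TN -0.93 ± 0.19 (adjusted p = 0.00243). Scd2, a second desaturase of this kind, fell in the same 4 clones by 0.71 to 0.93 on the log2 scale. Fads1, a desaturase of polyunsaturated chains, had 30.3, 32.1 and 27.6 CPM in treated 14559TN tumours, against 108, 97.8 and 92.6 CPM in untreated 14559TN tumours, a change of -1.73 ± 0.21 (adjusted p = 1.88e-07). It also fell in 13TN (log2 -1.08 ± 0.20, adjusted p = 8.07e-05) and 2646TN (log2 -1.0 ± 0.19, adjusted p = 0.00185), and in 2646R its groups overlapped (log2 -0.07 ± 0.19, adjusted p = 0.833). Fads2, which acts in the same chain of reactions, had 0 counts in the treated 14559TN libraries and 20 in the untreated ones, at least 6.72-fold lower (floor of 3 counts over the group). It passed the filter on low counts only with libraries of groups other than 14559TN, and its call is among the 6 of 11 there.

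Fasn, the fatty acid synthase, and Acaca, which makes its malonyl-CoA substrate, were called in no response. Fasn had 216, 201 and 234 CPM in treated 14559TN tumours, against 287, 257 and 272 CPM in untreated 14559TN tumours, values that did not overlap but missed the threshold (log2 -0.33 ± 0.22, adjusted p = 0.282). In 13TN it had 402, 381 and 366 CPM in treated 13TN tumours, against 272, 269 and 241 CPM in untreated 13TN tumours, in the opposite order and again without a call (log2 0.56 ± 0.22, adjusted p = 0.053), as in 2646R (log2 0.38 ± 0.22, adjusted p = 0.231). In 2646TN treated replicate 3 (449.7 CPM) lay above every other tumour and treated replicates 1 and 2 (198 and 209.9 CPM) below all. Acaca stayed between -0.32 and 0.25 on the log2 scale over the 5 responses. Acss2, which makes acetyl-CoA from acetate, was not called either, and stood at -1.10 ± 0.38 (adjusted p = 0.0974) in 2646TN and 0.67 ± 0.37 (adjusted p = 0.173) in 13TN. Acly, which makes acetyl-CoA from citrate and so serves both arms, fell in 14559TN (log2 -0.88 ± 0.17, adjusted p = 0.000152), 13TN (log2 -0.85 ± 0.16, adjusted p = 0.000166) and 2646TN (log2 -0.73 ± 0.16, adjusted p = 0.00756). The last of these calls was lost without treated replicate 2 (adjusted p = 0.06). Elovl6, an elongase, had 10.5, 17.7 and 9.98 CPM in treated 14559TN tumours, against 51.9, 37.4 and 53.1 CPM in untreated 14559TN tumours (log2 -1.88 ± 0.27, adjusted p = 4e-06). In 2646TN its call (log2 -1.09 ± 0.26, adjusted p = 0.0128) was lost without untreated or treated replicate 1 (adjusted p up to 0.148). Me1, a malic enzyme that yields NADPH, fell in 13TN (log2 -0.90 ± 0.28, adjusted p = 0.0129), a call lost without either replicate 3 (up to 0.104), and in 2646TN its treated tumours lay above the untreated ones without a call (log2 0.51 ± 0.27, adjusted p = 0.355).

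Acsbg1, which activates long fatty acids by joining them to coenzyme A, differed widely in level between clones. It had 6.50, 14.5 and 11.6 CPM in treated 2646R tumours, against 81.3, 83.9 and 79.0 CPM in untreated 2646R tumours, a change of -2.91 ± 0.45 (adjusted p = 5.76e-05). In 2646TN the log2 fold change was -2.83, without a call. None of the tested differences between responses was called for Acsbg1. In 13TN 3 counts stood against 91, 33.0-fold fewer in treated tumours (95% counting interval 11.3 to 160.0). In 14559TN 0 counts stood against 9, at least 3.02-fold lower, and in 14559R it had 6.11, 5.12 and 19.7 CPM in treated 14559R tumours, against 37.3, 21.2 and 33.9 CPM in untreated 14559R tumours without a call (log2 -1.59 ± 0.45, adjusted p = 0.16). Its treated tumours lay below the untreated ones in every clone but 14559TN, where 1 untreated library also had 0 counts.

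Summed over its genes, the sterol arm had 232, 213 and 186 CPM in treated 14559TN tumours, against 986, 741 and 909 CPM in untreated ones. The mean of the treated tumours was 23.9% of that of the untreated ones. The same share was 32.3% in 13TN, 40.1% in 2646TN, 64.0% in 2646R and 86.4% in 14559R. For the fatty acid arm it was 60.9% in 14559TN, 73.2% in 13TN, 63.9% in 2646TN, 68.0% in 2646R and 92.2% in 14559R. The fatty acid share thus lay above the sterol share in every clone, and close to it in 2646R. Scd2 and Fasn made up 55% to 69.6% of the fatty acid sum. Without them the share was 49.0% in 14559TN, 55.1% in 13TN, 59.8% in 2646TN, 64.2% in 2646R and 89.8% in 14559R.

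The ratio of the sterol sum to the fatty acid sum was 0.354 ± 0.0459 in treated and 0.898 ± 0.0648 in untreated 14559TN tumours (SD, n = 3 each). In 13TN it was 0.224 ± 0.0184 in treated tumours and, in untreated ones, 0.509 ± 0.0660. In 2646TN treated tumours had 0.457 ± 0.0892 and untreated ones 0.741 ± 0.0586. In these 3 clones no treated tumour overlapped an untreated one. The ratio overlapped in 2646R, with 0.618 ± 0.0543 in treated and 0.655 ± 0.0310 in untreated tumours, and in 14559R, with 0.850 ± 0.0781 in treated and 0.899 ± 0.142 in untreated tumours. Treated replicate 3 of 2646TN stood apart, with a sterol sum of 632 CPM beside 339.8 and 384 CPM in treated replicates 1 and 2. Without it 14 sterol and 6 fatty acid genes were called lower in 2646TN. Untreated replicate 2 of 14559R was low, at 768 CPM beside 1442 and 1178 CPM, and without it neither arm gained a call in 14559R.

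**Figure D3:**
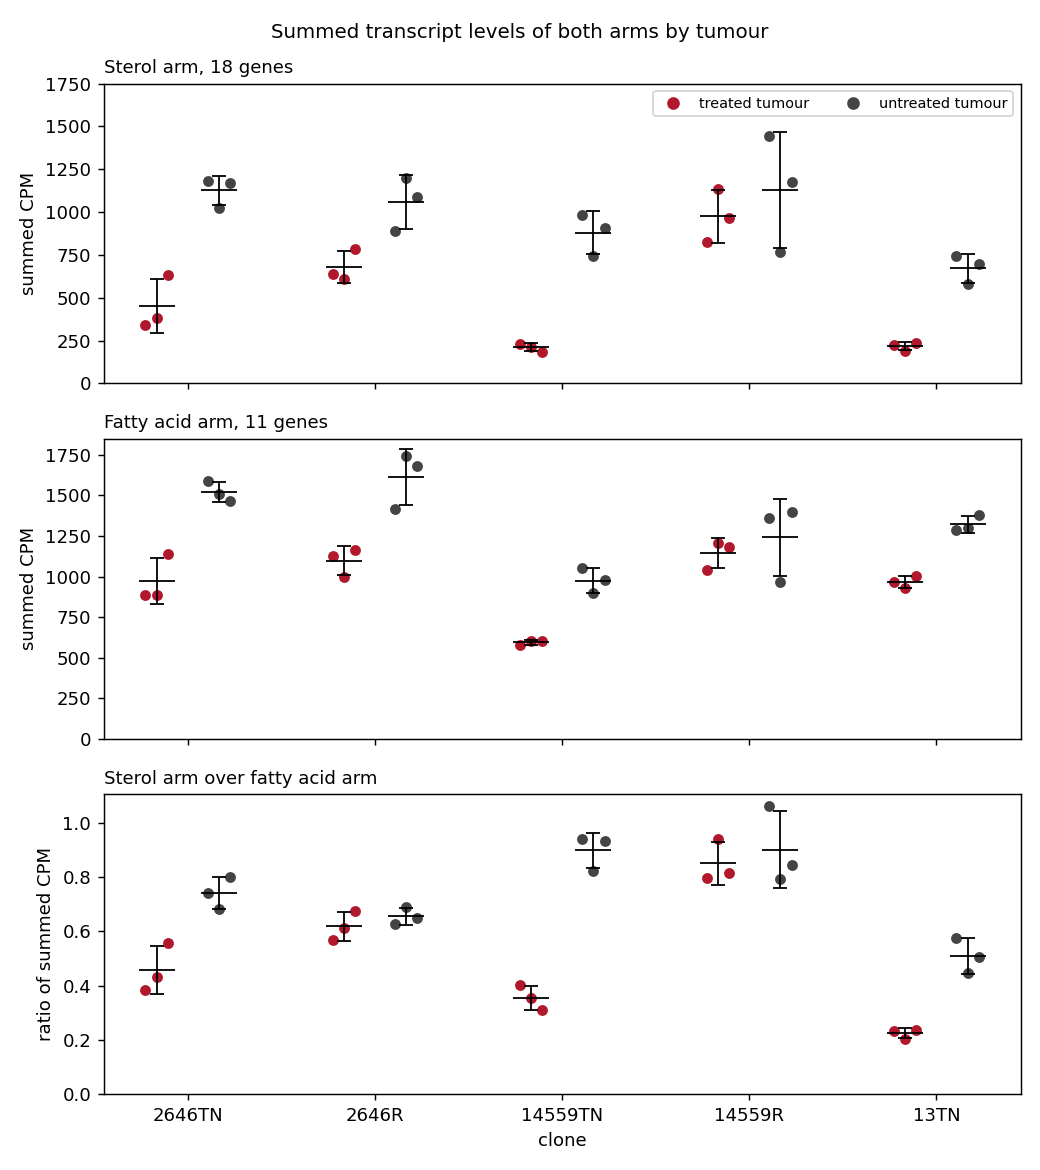
Summed CPM of the sterol arm, of the fatty acid arm, and their ratio in each tumour, treated left of untreated within each clone, with bars for the mean and SD of 3 tumours. The ratio separates treated from untreated tumours in 2646TN, 14559TN and 13TN and overlaps in 2646R and 14559R.

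14559R was the clone with no member called, and only 0.196% of all tested genes were called there in either direction. With so few calls over all genes, the lack of calls is not particular to these members. Log2 fold changes were negative for 15 of 17 sterol genes and 8 of 11 fatty acid genes, where the median over all tested genes was 0.001. At an unadjusted p under 0.05 edgeR gave 1 sterol gene, Tm7sf2, higher in treated tumours, and 2 fatty acid genes, Acsbg1 and Acss2, lower, where 10.6% of all genes passed that threshold in either direction. DESeq2 called none of either arm. Cyp51 had 119, 181 and 136 CPM in treated 14559R tumours, against 229.9, 117 and 176 CPM in untreated 14559R tumours, values that overlapped, as those of Scd1 and Hmgcs1 did. Without treated replicate 3 of 14559R the fatty acid arm gained 1 call.

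The test of the difference between the responses of 14559R and 14559TN called 11 of 17 sterol genes, 3 of 5 regulators and 4 of 11 fatty acid genes higher, against 7.93% of all genes. A positive value means that the gene fell less, or rose more, in 14559R. The differences were 3.04 ± 0.34 (adjusted p = 8.57e-07) for Cyp51, 3.24 ± 0.43 (adjusted p = 1.56e-05) for Msmo1, 2.95 ± 0.40 (adjusted p = 7.47e-06) for Sqle and 1.94 ± 0.31 (adjusted p = 7.64e-05) for Hmgcs1. Those of Fdps (3.80 ± 0.62), Fdft1 (2.58 ± 0.47), Stard4 (4.46 ± 0.54) and Srebf2 (1.74 ± 0.26) were also called. The call of Lss (log2 1.25 ± 0.37, adjusted p = 0.0231) was lost without a low-count filter and without untreated replicate 1 or 3 or treated replicate 1 or 3 of 14559TN or replicate 2 of either 14559R group. In the fatty acid arm Fads1 (1.6 ± 0.28), Elovl6 (1.96 ± 0.37) and Scd1 (1.06 ± 0.26) were called, and the fitted sizes for Fads2 and Insig1 are uncertain because a group had 0 or 1 count. Of the cell division markers 11 of 12 were called higher in the same difference, and their part in it was not tested. Leaving out any 1 library gave 10 or 11 sterol and 4 or 5 fatty acid calls.

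Between 2646R and 2646TN the same test called no sterol gene, although 5 passed an unadjusted p under 0.05 in edgeR, all higher, where 9.44% of all genes were. DESeq2 called 1. Of the fatty acid arm 1 of 11 was called, Fads1 (log2 0.93 ± 0.27, adjusted p = 0.047), against 2.36% of all genes. That call was lost without untreated replicate 1 or 2 or treated replicate 1 or 2 of 2646TN, without untreated replicate 1 or 2 or treated replicate 1 or 3 of 2646R, and with only these groups in the fit, with an adjusted p up to 0.124. Without treated replicate 3 of 2646TN, 5 sterol and 3 fatty acid genes were called, and 1 sterol gene was called without untreated replicate 2 of either clone or without treated replicate 2 of 2646R. Hmgcs1 (log2 0.98 ± 0.30, adjusted p = 0.0656) and Cyp51 (log2 0.86 ± 0.32, adjusted p = 0.13) were not called. Of the macrophage markers 7 of 11 were called higher in this difference, and their part in it was not tested.

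Some members responded differently in 14559TN and 2646TN. Of 17 sterol genes 6 fell further in 14559TN than in 2646TN, with 2 of 5 regulators and 1 of 11 fatty acid genes, against 8.87% of all genes called lower. They were Cyp51 (log2 -1.71 ± 0.35, adjusted p = 0.000967), Fdps (log2 -2.49 ± 0.63, adjusted p = 0.00731), Msmo1 (log2 -1.67 ± 0.44, adjusted p = 0.0111), Sqle (log2 -1.48 ± 0.41, adjusted p = 0.014), Fdft1 (log2 -1.48 ± 0.48, adjusted p = 0.034) and Mvd (log2 -1.65 ± 0.55, adjusted p = 0.0487). Stard4 (log2 -3.63 ± 0.55, adjusted p = 1.95e-05) was the regulator with the smallest p. All 12 cell division markers were called lower in this difference too, and 6 of 11 macrophage markers higher, and their part in it was not tested. At an unadjusted p under 0.05 in edgeR, a wider threshold, 11.9% of all genes were higher in it. The sterol count fell to 2 without treated replicate 3 of 2646TN, the tumour with the highest sterol sum of its group. The fatty acid gene was Fads2, which had 0 counts in treated 14559TN tumours and passed the filter only with libraries of groups other than 14559TN. Its call was lost without any 14559TN library but untreated replicate 3, and without untreated replicate 1 or 2 or treated replicate 3 of 2646TN (adjusted p up to 0.095). Without treated replicate 3 of 2646TN the calls of Fdps, Sqle, Fdft1 and Mvd were lost (adjusted p up to 0.0659, 0.0848, 0.105 and 0.225 over all alternatives). Sqle also lost its call without treated replicate 2 of 14559TN, and Fdft1 and Mvd theirs without untreated replicate 1 or 2 of 2646TN or untreated replicate 1 or 3 or treated replicate 1 or 3 of 14559TN. Fdft1 lost it without treated replicate 2 of 2646TN and Mvd without treated replicate 2 of 14559TN, under median-of-ratios scaling and with only the groups compared.

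In untreated tumours 2 sterol genes at most were called between the clones of a pair, and several fatty acid genes were. Between untreated 2646R and 2646TN no sterol gene was called in edgeR or DESeq2, with 5 lower and 1 higher at an unadjusted p under 0.05, where 22.7% and 22.8% of all genes were. With only those groups in the fit 3 were called, and 2 without untreated replicate 2 or 3 of 2646R. Of the fatty acid arm 3 were called higher and 3 lower, against 18.3% and 18.4% of all genes. Scd1 had 204, 254 and 226 CPM in untreated 2646R tumours, against 104, 119 and 123 CPM in untreated 2646TN tumours (log2 0.98 ± 0.18, adjusted p = 7.6e-05). Me1 (log2 1.23 ± 0.26, adjusted p = 0.000398) was also higher, and Fads1 (log2 -0.60 ± 0.19, adjusted p = 0.0135), Fasn (log2 -0.69 ± 0.22, adjusted p = 0.0151) and Acaca (log2 -0.47 ± 0.17, adjusted p = 0.0306) were lower. The count of 6 fell to 3 without untreated replicate 1 of 2646R, where the calls of Fads1, Fasn and Acaca were lost. The Fads1 call was also lost without untreated replicate 1 of 2646TN, the Fasn call without its untreated replicate 3, and the Acaca call without its untreated replicate 2 or 3 (adjusted p up to 0.073, 0.133 and 0.144).

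Acsbg1 separated the R from the TN clones of both pairs. It had 81.3, 83.9 and 79.0 CPM in untreated 2646R tumours, against 6.54, 3.42 and 2.69 CPM in untreated 2646TN tumours (log2 4.26 ± 0.51, adjusted p = 6.13e-07). It had 37.3, 21.2 and 33.9 CPM in untreated 14559R tumours, against 0, 2.15 and 0.503 CPM in untreated 14559TN tumours (log2 5.19 ± 0.65, adjusted p = 2.56e-06). No untreated R tumour overlapped an untreated TN tumour of its pair, and 13TN had 8.75, 7.92 and 7.06 CPM untreated. Srebf2 was also higher in both untreated R clones, by 0.64 ± 0.18 (adjusted p = 0.00447) between 2646R and 2646TN and 0.85 ± 0.18 (adjusted p = 0.000665) between 14559R and 14559TN. Between untreated 14559R and 14559TN 2 of 17 sterol genes, Dhcr7 (log2 1.40 ± 0.29, adjusted p = 0.000657) and Lss (log2 0.66 ± 0.25, adjusted p = 0.0471), and 3 of 11 fatty acid genes, Acsbg1, Scd2 (log2 0.62 ± 0.17, adjusted p = 0.00796) and Scd1 (log2 0.50 ± 0.18, adjusted p = 0.0413), were higher, against 12.9% of all genes. The sterol count was 6 without untreated replicate 2 of 14559R and 1 without any other of the 6 libraries. The fatty acid count was 5 without that library and 1 without untreated replicate 2 of 14559TN. The Lss and Scd1 calls were lost without any library but untreated replicate 2 of 14559R. Lss also lost its call without a low-count filter, and Scd1 with only the groups compared (adjusted p up to 0.225 and 0.294), and Scd2 lost its call without untreated replicate 2 of 14559TN (0.0665).

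In treated tumours the sterol arm differed between the clones of both pairs. Of 17 sterol genes 16 were higher in treated 14559R than in treated 14559TN, with 4 of 5 regulators and 8 of 11 fatty acid genes, against 26.6% of all genes. Cyp51 had 119, 181 and 136 CPM in treated 14559R tumours, against 13.0, 13.5 and 10.3 CPM in treated 14559TN tumours (log2 3.55 ± 0.26, adjusted p = 2.4e-11). Sqle stood at 3.54 ± 0.31, Msmo1 at 3.84 ± 0.34, Srebf2 at 2.59 ± 0.19 and Stard4 at 4.53 ± 0.44. Scd1 (log2 1.57 ± 0.19, adjusted p = 4.44e-08), Fads1 (log2 1.64 ± 0.21, adjusted p = 1.48e-07) and Scd2 (log2 1.31 ± 0.17, adjusted p = 2.94e-07) had the smallest p of the fatty acid arm. Acsbg1 had 126 counts in treated 14559R tumours against 0 in treated 14559TN tumours, at least 36.2-fold higher, and Insig1 had 53 against 1, 45.7-fold higher (95% counting interval 8.20 to 1806). Tm7sf2, Scap, Acaca, Fasn and Acss2 were not called in this comparison. Cell division markers summed to 929 ± 107 CPM in treated 14559R and 148 ± 33.1 CPM in treated 14559TN tumours, with all 12 called higher (median log2 2.97), and their part in the other differences was not tested. Srebf1 (log2 1.08 ± 0.41, adjusted p = 0.028) lost its call without treated replicate 1 of 14559TN or treated replicate 1 or 2 of 14559R, and Me1 (log2 0.72 ± 0.26, adjusted p = 0.0227) without treated replicate 2 or 3 of 14559TN or treated replicate 1 or 2 of 14559R.

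Between treated 2646R and 2646TN 7 of 17 sterol genes, 2 of 5 regulators and 2 of 11 fatty acid genes were higher, against 10% of all genes. Sqle had 61.9, 58.4 and 66.1 CPM in treated 2646R tumours, against 13.8, 23.0 and 42.8 CPM in treated 2646TN tumours (log2 1.22 ± 0.27, adjusted p = 0.00151). Cyp51 (log2 1.05 ± 0.23, adjusted p = 0.00164), Hmgcs1 (log2 0.84 ± 0.22, adjusted p = 0.0073), Hsd17b7 (log2 0.91 ± 0.26, adjusted p = 0.0137), Sc5d (log2 1.03 ± 0.31, adjusted p = 0.0151), Dhcr7 (log2 0.94 ± 0.31, adjusted p = 0.0302) and Msmo1 (log2 0.84 ± 0.29, adjusted p = 0.0419) were the others. Cell division markers (6 of 12) and macrophage markers (3 of 11) were called higher in this comparison as well, and their part was not tested. The fatty acid genes were Elovl6 (log2 1.32 ± 0.26, adjusted p = 0.000426) and Acsbg1 (log2 4.19 ± 0.75, adjusted p = 0.000297), and the regulators Srebf2 (log2 0.94 ± 0.18, adjusted p = 0.0003) and Scap (log2 0.46 ± 0.15, adjusted p = 0.0243). Fasn, Scd1 and Scd2 were not called. The sterol count was 3 without treated replicate 3 of 2646R, 4 without treated replicate 2 of 2646TN and 9 without treated replicate 3 of 2646TN. Without treated replicate 3 of 2646R the calls of Hsd17b7, Sc5d, Dhcr7, Msmo1 and Scap were lost. Without treated replicate 2 of 2646TN those of Hsd17b7, Dhcr7 and Msmo1 were lost, without treated replicate 1 of either clone those of Dhcr7 and Msmo1, without treated replicate 1 or 3 of 2646TN, without a low-count filter and with only the groups compared that of Scap, and without treated replicate 2 of 2646R that of Msmo1 (adjusted p up to 0.136 for Msmo1 and 0.144 for Scap).

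**Figure D4:**
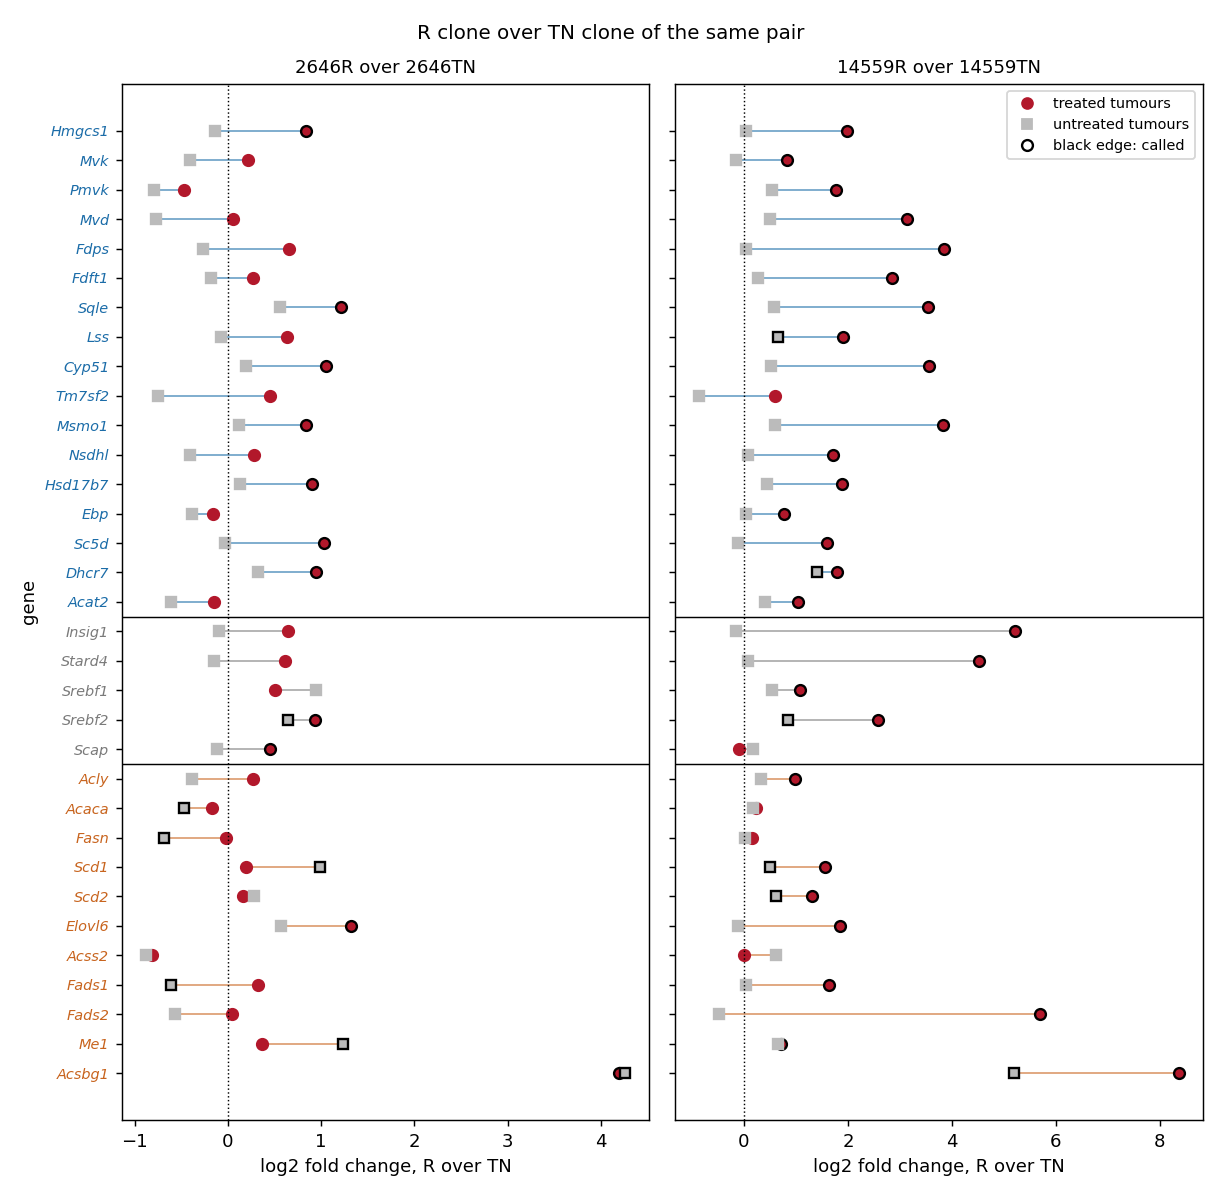
Log2 fold change of the R clone over the TN clone of its pair for each gene, in treated (red circles) and untreated tumours (grey squares), with a black edge where the gene was called at adjusted p under 0.05. Between 14559R and 14559TN the sterol genes lie further right in treated than in untreated tumours, and Acsbg1 lies above 4 in both pairs under both conditions.

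Genes around the pathway were counted from lists written beside the members. Of all tested genes 16% were called lower and 12.4% higher in 14559TN, 17.4% and 13.6% in 13TN, 2.24% and 1.69% in 2646TN, and 10.2% and 9.7% in 2646R, and the counts of several lists lie near those shares. Of 15 other SREBP targets and sterol genes 7 fell and 1 rose in 14559TN and in 13TN, 5 fell in 2646TN, and 5 fell and 1 rose in 2646R. One of them is Tmem97, a sterol-responsive membrane protein, with 3.12, 2.71 and 1.43 CPM in treated 14559TN tumours, against 22.0, 18.4 and 25.2 CPM in untreated 14559TN tumours (log2 -3.15 ± 0.35, adjusted p = 3.12e-08). Of 11 genes of the isoprenoid branch, which leaves the pathway at farnesyl diphosphate, 1 rose in 14559TN, 1 in 13TN and 2 in 2646R. Among 7 liver X receptor genes, which respond to sterol in excess, Abca1, a cholesterol exporter, had 122, 118 and 134 CPM in treated 13TN tumours, against 18.5, 27.0 and 23.9 CPM in untreated 13TN tumours (log2 2.43 ± 0.32, adjusted p = 1.53e-06). In all 2 of these genes rose in 14559TN, 3 in 13TN and 1 each in 2646TN and 2646R, where 1 also fell. Abca1 also rose in 14559TN (log2 1.78 ± 0.30, adjusted p = 7.3e-05) and 2646TN (log2 1.14 ± 0.32, adjusted p = 0.0412), and Mylip, a ligase that degrades lipoprotein receptors, rose in 13TN (log2 1.25 ± 0.39, adjusted p = 0.0171). Of the genes that supply and elongate fatty acids 5 of 14 fell in 14559TN and 2 in 13TN, where 1 rose in each, and 3 fell in 2646R and 2 in 2646TN, among them the citrate carrier Slc25a1 in all 4 (-1.02 in 13TN and -0.72 in 2646TN). Fatty acid oxidation genes rose in 2646R (6 of 14) and 13TN (3 of 14), with 1 of 14 lower in 14559TN. Of 10 glycerolipid and droplet genes 3 fell and 2 rose in 2646R, 1 fell and 1 rose in 14559TN and 1 fell in 13TN.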

How the data were processed

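The authors deposited 1 table of raw read counts per tumour, whole numbers per gene, per the file headers. Reads had been aligned to GRCm38 with STAR 2.6.0c and counted with featureCounts 1.6.2, per the submitters' processing notes. From these counts, edgeR 4.0.16 (R 4.3.3) filtered genes with filterByExpr, scaled libraries with TMM and fitted 1 robust quasi-likelihood model over the 10 groups, which then share 1 estimate of the spread. The fit gave 12 comparisons: treated over untreated in each clone, R over TN clone untreated and treated in each pair, and 3 differences between responses. P-values were adjusted by the Benjamini-Hochberg method over 13286 genes, and standard errors were taken from the size of the log2 fold change and the F statistic. The fit was first tested on simulated data. Alternatives were DESeq2 1.42.0, median-of-ratios scaling, no low-count filter, only the groups compared, and leaving out each library. Levels are CPM on TMM scale, and values after ± are standard errors beside log2 fold changes and SDs beside levels. Promoters and gene spans came from RefSeq and GENCODE tables.

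The 34 members and the other gene lists were chosen with earlier results of these data known. The members described in full were up to 6 per arm and comparison with the smallest adjusted p among those called, plus those called against the median of their arm. Members outside that rule, among them Acss2, Tm7sf2, Fasn and Acaca, were chosen after their values were seen. Genes of other lists named here were among the 2 with the smallest adjusted p in their direction in 1 response at least, and some of those are not reported here. The counting intervals cover the counting error of the lower count alone, with the higher count taken as exact. Floors of counts take the higher count as exact too, and neither covers the spread between tumours.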

Additional observations from a re-analysis of the deposited data

Results flagged for a closer look

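The responses to RAFi/MEKi differed between clones for the genes given here, each called by edgeR's test of the difference itself at adjusted p under 0.05. Values are differences of log2 fold changes. Between 14559R and 14559TN, a positive value means a smaller fall or a rise in 14559R. In the sterol arm it was 1.94 for Hmgcs1, 2.64 for Mvd, 3.80 for Fdps, 2.58 for Fdft1, 2.95 for Sqle and 1.25 for Lss. For the genes that act after lanosterol it was 3.04 for Cyp51, 3.24 for Msmo1, 1.62 for Nsdhl, 1.44 for Hsd17b7 and 1.70 for Sc5d. Of the regulators it was 1.74 for Srebf2, 4.46 for Stard4 and 5.38 for Insig1. Of the fatty acid arm it was 1.96 for Elovl6, 1.6 for Fads1, 1.06 for Scd1 and 6.17 for Fads2.

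Between 2646R and 2646TN it was 0.93 for Fads1. Between 14559TN and 2646TN, where a negative value means a deeper fall in 14559TN, it was -1.65 for Mvd, -2.49 for Fdps, -1.48 for Fdft1, -1.48 for Sqle, -1.71 for Cyp51 and -1.67 for Msmo1. Of the other genes it was -3.63 for Stard4, -3.81 for Insig1 and -5.07 for Fads2. The sizes for Insig1 and Fads2 rest on 1 and 0 counts in treated 14559TN tumours and depend on the fit. The Insig1 call between 14559TN and 2646TN was lost without untreated or treated replicate 3 of 14559TN or treated replicate 3 of 2646TN (adjusted p up to 0.0846). No gene was tested for a single tumour apart from the rest, since every group held 3.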

How the results depend on the processing

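No direction of a called member reversed under any alternative. Of 156 calls over the members and comparisons DESeq2 kept 155, median-of-ratios scaling 154 and the fit without a low-count filter 152. With only the groups compared 143 of 151 were kept, and over fits without 1 library 964 of 1104. Without the filter 8 sterol genes were called in 2646R (4 as reported), 1 fatty acid gene in 14559R (0), 4 sterol genes between untreated 2646R and 2646TN (0), 4 between untreated 14559R and 14559TN (2), 4 sterol and 3 fatty acid genes in the 2646R minus 2646TN difference (0 and 1), and 2 fatty acid genes in the 14559TN minus 2646TN difference (1). DESeq2 called 1 sterol gene in the 2646R minus 2646TN difference. With only the groups compared 3 sterol genes were called between untreated 2646R and 2646TN, 0 fatty acid genes in the 2646R minus 2646TN difference and 2 in the 14559TN minus 2646TN difference. Leaving out 1 library gave 2 to 6 sterol calls in 2646R and 0 to 1 fatty acid calls in 14559R. It gave 0 to 2 sterol and 3 to 8 fatty acid calls between untreated 2646R and 2646TN, 1 to 6 and 1 to 5 between untreated 14559R and 14559TN, and 3 to 9 sterol calls between treated 2646R and 2646TN. It gave 0 to 5 sterol and 0 to 3 fatty acid calls in the 2646R minus 2646TN difference, and 2 to 7 and 0 to 1 in the 14559TN minus 2646TN difference. The cause was not tested. All other counts by arm stayed within 1.5 times the reported ones. Idi1, Insig1, Fads2 and Acsbg1 had 3 counts or fewer in a whole group, which limits the precision of their changes, and the cause of the low counts was not tested. No paired analysis was possible because each tumour has a code of its own and the replicate numbers only name the samples.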

Other observations

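In 2646R 10.2% of all genes were called lower and 9.7% higher. There 6 of 14 fatty acid oxidation genes rose, and of 10 glycerolipid and droplet genes 3 fell and 2 rose. Acadm, a dehydrogenase of fatty acid oxidation, had 40.1, 34.8 and 36.4 CPM in treated 2646R tumours, against 23.3, 25.7 and 13.4 CPM in untreated 2646R tumours (log2 0.82 ± 0.23, adjusted p = 0.0103). Etfb, a subunit that takes electrons from such enzymes, rose as well (log2 0.94 ± 0.18, adjusted p = 0.000369). Plin2, a coat protein of lipid droplets, had 99.9, 89.8 and 102 CPM in treated 2646R tumours, against 245, 156 and 206 CPM in untreated 2646R tumours (log2 -1.06 ± 0.21, adjusted p = 0.000612). Insig2, a relative of Insig1, fell in 2646R (log2 -1.39 ± 0.21, adjusted p = 1.42e-05), while Insig1 stood at -0.91 ± 0.50 (adjusted p = 0.203). In 13TN Hacd2, a dehydratase of chain elongation, had 29.0, 28.3 and 14.8 CPM in treated 13TN tumours, against 5.83, 5.20 and 2.46 CPM in untreated 13TN tumours (log2 2.39 ± 0.46, adjusted p = 0.00013). Hsd17b12, a reductase of the same cycle, fell in 14559TN (log2 -1.28 ± 0.13, adjusted p = 7.83e-09) and in 13TN (log2 -0.93 ± 0.13, adjusted p = 1.23e-06).

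Idi1 was too low for the test. Its counts in the 3 libraries of a group were 0, 0 and 0 in treated and 6, 2 and 2 in untreated 14559TN tumours, 0, 0 and 0 in treated and 0, 6 and 2 in untreated 13TN tumours, 1, 0 and 2 in treated and 5, 1 and 3 in untreated 2646TN tumours, 2, 0 and 0 in treated and 0, 2 and 3 in untreated 2646R tumours, and 1, 1 and 1 in treated and 8, 0 and 1 in untreated 14559R tumours.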
